A study of Mus musculus with 18 samples.

Results

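The genes described here are 10 genes of apoptotic-cell uptake, followed across the 6 groups of a study of LPS and carboplatin in macrophages. They are the TAM receptors Axl, Mertk and Tyro3, the TAM ligands Gas6 and Pros1, and Timd4, Mfge8, Cd300lf, Lrp1 and Trem2. The genes were chosen by name, with earlier results of these data known, and all 10 were present among the 22852 gene symbols counted. The study grew bone marrow-derived macrophages (BMDMs) of female C57BL/6 mice in medium conditioned by L929 cells and asked whether carboplatin, a platinum chemotherapeutic, alters the response to LPS and the tolerance that follows it. Poly(A) RNA of 18 samples was sequenced, with 3 biological replicates in each group, and the labels number the replicates from 1 to 3.

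Unstimulated BMDMs (label Unstim) received no LPS and no carboplatin. LPS-primed BMDMs (LPS100) received 100 ng/ml LPS for 24 h. LPS-tolerant BMDMs (Tol) received the same first dose and then 10 ng/ml LPS for 3 h. LPS-primed and LPS-tolerant BMDMs with carboplatin (LPS100-Carbo25 and Tol-Carbo25) received 25 µM of the drug from 1 h before the first LPS dose. The methods of the study remove the medium only after the 24 h of that dose. LPS-stimulated BMDMs (LPS10Control) received only 10 ng/ml LPS, for 3 h according to the scheme of the study. The treatment text of the labels places carboplatin after LPS, whereas the methods of the study place it before, and the methods were followed here. LPS-primed and LPS-stimulated BMDMs differ in both dose and time, which cannot be told apart. LPS-tolerant BMDMs received the second dose in fresh medium and were harvested 3 h later than LPS-primed BMDMs. The second dose cannot be told apart from the change of medium and the later harvest. The methods do not state whether LPS-stimulated BMDMs had fresh medium or when unstimulated BMDMs were harvested. The samples are bulk RNA, so fewer cells of a type and less RNA per cell cannot be told apart either.

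Efferocytosis is the clearance of dying cells by phagocytes, which recognize phosphatidylserine on the surface of the dying cell. TAM receptors are receptor tyrosine kinases that bind phosphatidylserine through the bridging ligands Gas6 and protein S, and their signalling also restrains the response of macrophages to Toll-like receptors. Mertk is known as the main receptor for uptake in resting and glucocorticoid-treated macrophages, whereas Axl is known to be induced by interferons and microbial products.

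Between 6869667 and 14708099 read pairs per sample fell on genes, and within groups log expression correlated at 0.962 to 0.975 on average. The 10 most abundant genes took 8.85 to 19.2% of these read pairs. All 7 macrophage markers had 10 or more counts in every group, with a summed level of 12266 to 30549 CPM per sample. Markers of dendritic cells, neutrophils, B cells, T or NK cells, erythroid cells and mast cells stayed at a summed 4.31 CPM or lower. The 7 stromal markers summed to 0.0881 to 0.684 CPM in unstimulated samples and to 2.44 to 9.51 CPM in the other groups, carried mainly by Dcn and Pdgfrb, with Pdgfra at 0 in 5 of the 6 groups. The 5 osteoclast markers, led by Acp5 and Ctsk, summed to between 30.5 and 66.2 CPM in unstimulated samples and between 102 and 153 CPM in LPS-stimulated samples. As a check of the LPS treatment, Tnf rose by a log2FC of 6.74 in LPS-stimulated BMDMs against unstimulated BMDMs and was lower in LPS-tolerant BMDMs than after LPS stimulation alone (log2FC -2.06). The other LPS response genes checked, Il6, Il1b, Nos2, Saa3 and Ifit1, also rose after LPS stimulation. With priming all rose but Ifit1 (log2FC -0.34). In LPS-tolerant against LPS-stimulated BMDMs, Ifit1 was lower (log2FC -3.34) and Saa3 higher (log2FC 5.17). Il6, Il1b and Nos2 had a negative log2FC there that did not pass the test. The 6 p53 response genes checked had a positive log2FC under carboplatin in both LPS states, and none passed the test.

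Expression is given as normalised read counts, which are counts scaled to a common library size with edgeR's TMM factors, and levels of different genes are set side by side only per length, as RPKM over the canonical transcript. In the tests, log2FC is the log2 ratio of the first group to the second, and a gene was called at an adjusted p under 0.05 in the quasi-likelihood test of edgeR, adjusted by the method of Benjamini and Hochberg over the 11305 genes that passed the filter on low counts. The filter kept 8 of the 10 genes. It left out Tyro3 and Timd4. Libraries were stranded, but the strand option of the counting is not given in the sources used here. Exons of Mertk, Gas6, Pros1, Mfge8, Lrp1 and Trem2 share 32 to 1271 bases with a gene on the opposite strand, whose reads cannot be told apart from theirs if strand was not used.

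The promoters of 4 genes are shown: Axl and Mertk, receptors of one family that moved apart, Cd300lf, which was higher in LPS-primed and LPS-tolerant than in unstimulated samples, and Trem2, the most abundant of the genes. Each window holds the 250 bases upstream of the outermost annotated start in GRCm39 (GENCODE vM39), written on the strand of the gene. Capitals mark matches to the motifs searched on both strands, and unmatched windows have none. The windows are chr7:25488330-25488579 on the minus strand for Axl, chr2:128540479-128540728 on the plus strand for Mertk, chr11:115024819-115025068 on the minus strand for Cd300lf and chr17:48653179-48653428 on the plus strand for Trem2.
Axl: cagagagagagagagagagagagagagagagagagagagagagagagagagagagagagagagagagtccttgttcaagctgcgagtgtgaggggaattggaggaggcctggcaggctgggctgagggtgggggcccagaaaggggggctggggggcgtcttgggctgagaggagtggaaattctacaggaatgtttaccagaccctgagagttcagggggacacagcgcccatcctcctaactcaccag
Mertk: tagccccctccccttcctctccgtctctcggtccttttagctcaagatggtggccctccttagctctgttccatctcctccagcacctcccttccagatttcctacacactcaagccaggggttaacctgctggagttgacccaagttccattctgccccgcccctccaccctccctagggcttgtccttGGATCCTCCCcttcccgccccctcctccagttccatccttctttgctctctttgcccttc
Cd300lf: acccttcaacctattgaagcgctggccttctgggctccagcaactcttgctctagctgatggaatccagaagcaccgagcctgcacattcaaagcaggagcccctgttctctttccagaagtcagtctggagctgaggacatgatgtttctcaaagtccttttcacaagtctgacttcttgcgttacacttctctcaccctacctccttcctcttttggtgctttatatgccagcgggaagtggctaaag
Trem2: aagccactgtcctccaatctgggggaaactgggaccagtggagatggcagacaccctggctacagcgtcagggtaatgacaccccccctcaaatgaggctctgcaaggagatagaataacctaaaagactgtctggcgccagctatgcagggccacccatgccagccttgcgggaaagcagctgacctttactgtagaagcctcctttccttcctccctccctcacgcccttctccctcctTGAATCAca

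The Mertk window holds an NF-kB motif (GGGANNNNCC) on the minus strand, 60 bases upstream of the start, and 188 of its bases lie in annotated exons. The Trem2 window holds an AP-1 motif (TGANTCA) 9 bases upstream. In the Axl and Cd300lf windows no letters of these motifs, or of ISRE (GAAANNGAAA), GAS (TTCNNNGAA), CRE (TGACGTCA), E-box (CACGTG) or PU.1 (GAGGAAGT), were found. Among the promoters of 21757 protein-coding genes, 16.5% held the NF-kB motif, 6.46% the AP-1 motif, 3.44% the ISRE, 7.82% the GAS motif, 5.69% the E-box, 2.13% the PU.1 motif and 1.31% the CRE. Of the 10 genes, 1 each held the NF-kB (Mertk), AP-1 (Trem2), GAS (Lrp1) and E-box (Pros1) motifs, and none held the ISRE, CRE or PU.1 motif. The GC box (GGGCGG), not capitalised here, was in 3 of the 10 windows and in 29.9% of all promoters. The patterns can overlap each other in a window. A match is a description of letters and not of a bound site.

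Trem2 was the most abundant of the 10 genes per length in each of the 6 groups, with a mean of 845 RPKM in unstimulated BMDMs and 168 RPKM in LPS-primed BMDMs with carboplatin, its lowest group. Gas6 was next in unstimulated BMDMs at a mean of 195 RPKM, followed by Lrp1 at 112, Mfge8 at 65.6, Axl at 33.7, Pros1 at 26.9, Mertk at 14.1 and Cd300lf at 8.55 RPKM. In LPS-tolerant BMDMs the order was different, with Lrp1 at a mean of 91.4, Mfge8 at 42.1, Cd300lf at 40.5, Gas6 at 19.6, Pros1 at 10.5, Mertk at 3.20 and Axl at 3.15 RPKM. Tyro3 and Timd4 did not exceed a mean of 0.118 and 0.240 RPKM in any group.

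**Figure D1:**
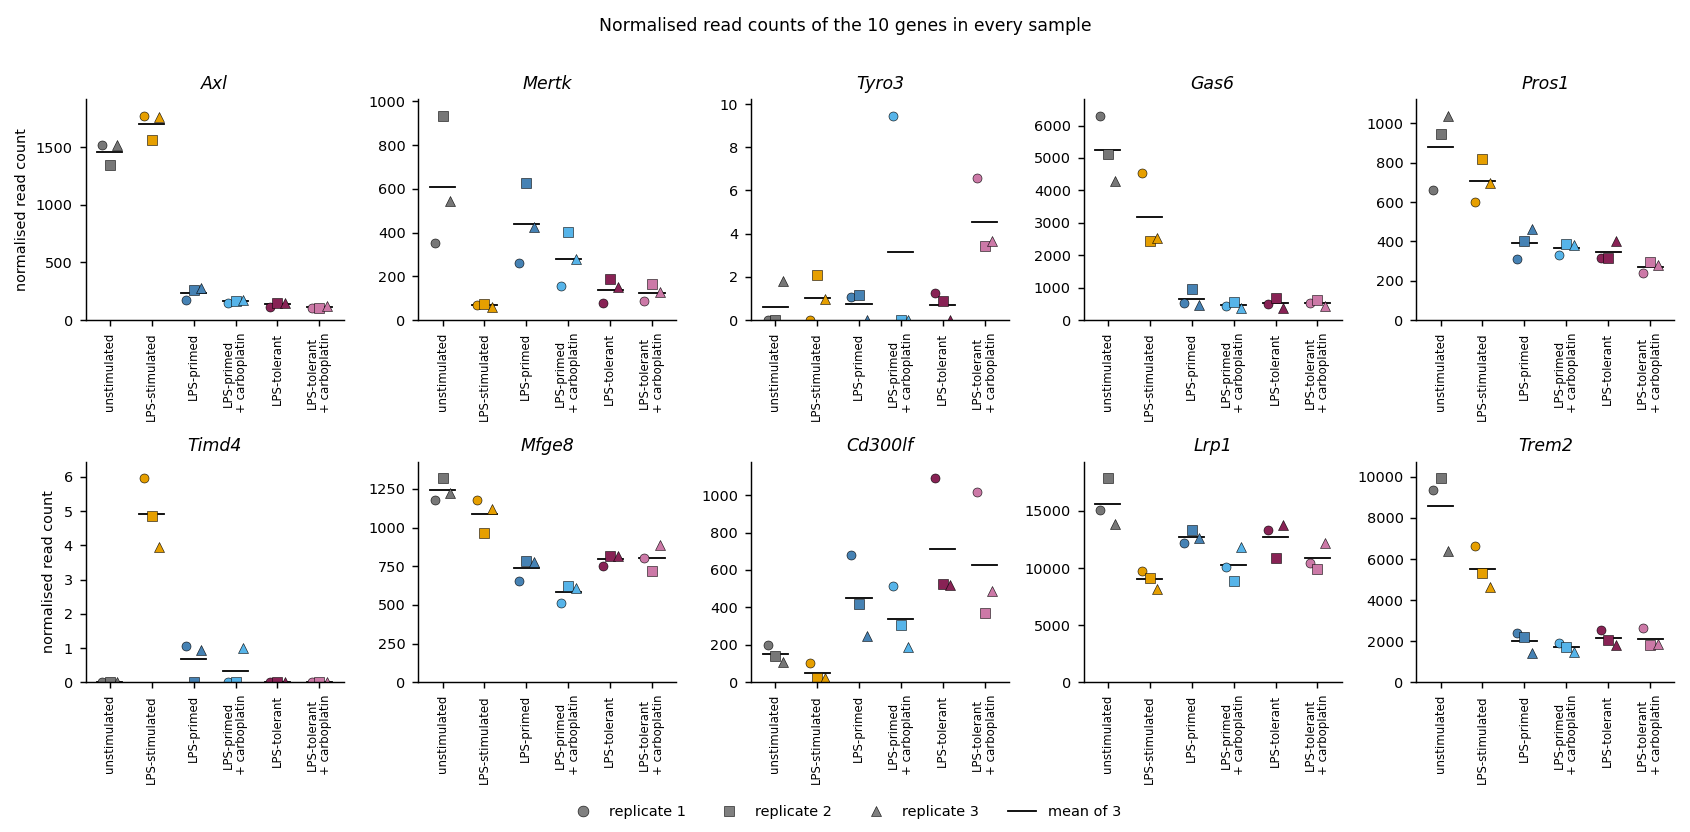
Normalised read counts of the 10 genes (y axis, 1 scale per gene) in the 3 replicates of each group (x axis), with a bar at the mean of 3. Axl is high in the unstimulated and LPS-stimulated groups (means of 1459 and 1698) and at or below a mean of 238 in the other 4, Cd300lf is highest in the LPS-tolerant group (mean of 711), and Tyro3 and Timd4 stay below 10.

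Axl (chr7:25456535-25488329, minus strand of GRCm39) encodes the TAM receptor that binds Gas6. Its normalised read counts were 1520, 1341 and 1516 in unstimulated samples and 174, 262 and 278 in LPS-primed samples. LPS-stimulated samples had 1771, 1562 and 1762, and LPS-tolerant samples had 114, 151 and 144. The 24 h groups thus lay far below the others, with no overlap, while the values after 3 h of LPS alone lay just above those of unstimulated samples.

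Axl fell 6.13-fold with LPS priming (log2FC -2.62, SE 0.17, adjusted p = 8.03e-09). It did not pass the test after 3 h of LPS alone (log2FC 0.22, 95% interval -0.12 to 0.56, adjusted p = 0.265), and that value turned to -0.12 when libraries were scaled by total count alone. Against LPS-stimulated BMDMs, Axl was 12.4-fold lower in LPS-tolerant BMDMs (log2FC -3.63, SE 0.18, adjusted p = 2.99e-10). Axl was also lower in LPS-tolerant than in LPS-primed BMDMs (log2FC -0.80, SE 0.17, adjusted p = 0.00918), in 3 of 3 same-numbered pairs and with no overlap. That last call was lost without LPS-primed replicate 3 (log2FC -0.67, adjusted p = 0.0622) and in a fit of only the samples compared (adjusted p = 0.0909). It held with the replicate number as a block (log2FC -0.79, SE 0.15, adjusted p = 0.00136).

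Mertk (chr2:128540729-128645080, plus strand) encodes the TAM receptor that binds both Gas6 and protein S. Unstimulated samples had 351, 934 and 544 normalised read counts and LPS-primed samples had 260, 627 and 428, so that these groups overlapped. LPS-stimulated samples had 69.2, 72.0 and 60.1, the lowest values of any group, and LPS-tolerant samples had 79.8, 187 and 149. Replicate 2 had the highest Mertk count in 6 of 6 groups.

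Mertk fell 9.07-fold after 3 h of LPS (log2FC -3.18, SE 0.44, adjusted p = 1.51e-05), whereas LPS priming for 24 h gave a log2FC of -0.48 (95% interval -1.31 to 0.36, adjusted p = 0.428). With the replicate number as a block, the priming value was -0.46 (SE 0.18) and passed the test (adjusted p = 0.0490). Mertk was 3.14-fold lower in LPS-tolerant than in LPS-primed BMDMs (log2FC -1.65, SE 0.41, adjusted p = 0.0239). Leaving out LPS-primed replicate 2 or 3, or LPS-tolerant replicate 1 or 3, brought that value to between -1.30 and -1.70 and ended the call (adjusted p of 0.0648 to 0.111). With the replicate block the call held (log2FC -1.65, SE 0.19, adjusted p = 1.57e-05). In LPS-tolerant BMDMs Mertk stood at a log2FC of 1.05 against LPS-stimulated BMDMs (SE 0.43, adjusted p = 0.0674), with no overlap of the groups, and the blocked fit called it (log2FC 1.00, SE 0.21, adjusted p = 0.000773). It was also called by DESeq2 (adjusted p = 0.0387), with only the samples compared (adjusted p = 0.0359) and without LPS-tolerant replicate 1 (log2FC 1.32, adjusted p = 0.0295).

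The balance of both receptors therefore differed between the groups. The ratio of Axl to Mertk, in RPKM, was 4.34, 1.44 and 2.79 in the unstimulated samples and 25.6, 21.8 and 29.4 in the LPS-stimulated samples. It was 0.668, 0.419 and 0.651 in LPS-primed samples and 1.43, 0.812 and 0.968 in LPS-tolerant samples. The unstimulated, LPS-stimulated and LPS-primed groups did not overlap in this ratio, which is a description without a test.

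**Figure D2:**
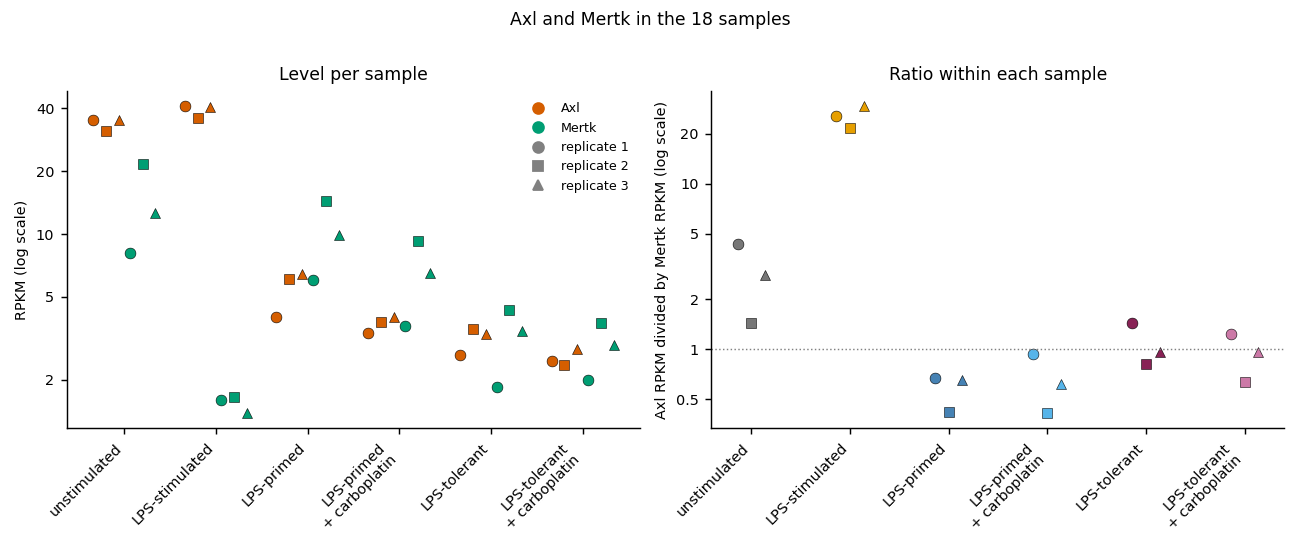
Axl and Mertk levels in RPKM (left, log scale) and the ratio of Axl to Mertk within each sample (right, log scale), for the 6 groups on the x axis with 1 point per replicate. The ratio is above 20 in all 3 LPS-stimulated samples, between 1.44 and 4.34 in unstimulated samples and below 1 in all LPS-primed samples.

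Tyro3 (chr2:119628214-119648738, plus strand), the TAM receptor best known from the nervous system, was near the limit of detection. Raw counts were 0, 0 and 2 in unstimulated, 1, 1 and 0 in LPS-primed, 1, 1 and 0 in LPS-tolerant and 0, 3 and 1 in LPS-stimulated samples. With carboplatin they were 7, 0 and 0 in LPS-primed samples and 5, 3 and 4 in LPS-tolerant samples. Without the filter on low counts, Tyro3 gave an unadjusted p of 0.0957 and an adjusted p of 1 for carboplatin in LPS-tolerant BMDMs, so no difference was detectable at this depth.

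Gas6 (chr8:13515371-13544824, minus strand) encodes the vitamin K-dependent ligand of all TAM receptors. Its normalised read counts were 6299, 5108 and 4301 in unstimulated samples and 518, 950 and 456 in LPS-primed samples. They were 4545, 2435 and 2517 in LPS-stimulated samples and 509, 688 and 382 in LPS-tolerant samples. The 24 h groups lay below the others without overlap, whereas LPS-stimulated and unstimulated samples overlapped.

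Gas6 fell 8.17-fold with priming (log2FC -3.03, SE 0.32, adjusted p = 1.90e-06), the lowest log2FC among the 8 tested genes in that comparison. After 3 h of LPS alone it fell by 0.73 on the log2 scale (SE 0.29, adjusted p = 0.0487). This call was lost with RLE size factors (adjusted p = 0.0583), in a fit of only the samples compared (adjusted p = 0.0635) and without unstimulated replicate 1 or 2 or LPS-stimulated replicate 2 or 3 (log2FC -0.72 to -0.56). The replicate block kept it (log2FC -0.72, SE 0.21, adjusted p = 0.00658). Against LPS-stimulated BMDMs, LPS-tolerant BMDMs had 6.00-fold less Gas6 (log2FC -2.59, SE 0.31, adjusted p = 8.02e-06), and against LPS-primed BMDMs the log2FC was -0.28 (95% interval -0.91 to 0.35, adjusted p = 0.656).

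Pros1 (chr16:62674275-62749710, plus strand) encodes protein S, the ligand shared with the anticoagulant pathway, which binds Mertk and Tyro3. Its normalised read counts were 660, 943 and 1038 in unstimulated, 310, 400 and 461 in LPS-primed, 598, 820 and 695 in LPS-stimulated and 315, 314 and 401 in LPS-tolerant samples. Its LPS-primed and LPS-tolerant values were below the others without overlap. Pros1 fell 2.25-fold with priming (log2FC -1.17, SE 0.19, adjusted p = 0.000216) and was 2.05-fold lower in LPS-tolerant BMDMs than after LPS stimulation alone (log2FC -1.04, SE 0.19, adjusted p = 0.000489). After 3 h of LPS alone, its log2FC was -0.32 (95% interval -0.72 to 0.08, adjusted p = 0.168), and the call was made with the replicate block (log2FC -0.31, adjusted p = 0.0373), with library size alone (log2FC -0.66, adjusted p = 0.00884) and without unstimulated replicate 1 (log2FC -0.47, adjusted p = 0.0474).

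Since Gas6 fell more than Pros1, the ratio of Gas6 to Pros1 in RPKM was 11.7, 6.61 and 5.06 in unstimulated samples and 2.04, 2.90 and 1.21 in LPS-primed samples. In LPS-stimulated samples it was 9.28, 3.63 and 4.42, and in LPS-tolerant samples 1.97, 2.67 and 1.16. Every one of these LPS-primed and LPS-tolerant samples was below every unstimulated and LPS-stimulated sample. Gas6 stayed the more abundant ligand in all 18 samples.

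Mfge8 (chr7:78783515-78798825, minus strand) encodes the secreted bridge between phosphatidylserine and integrins that contain the alpha-v chain. Its normalised read counts were 1180, 1320 and 1222 in unstimulated samples, 652, 783 and 780 in LPS-primed samples, 1180, 962 and 1120 in LPS-stimulated samples and 753, 819 and 816 in LPS-tolerant samples. The 24 h groups again lay below the other groups without overlap. Mfge8 fell 1.68-fold with priming (log2FC -0.75, SE 0.13, adjusted p = 0.000400). In LPS-tolerant BMDMs it was lower than in LPS-stimulated BMDMs (log2FC -0.45, SE 0.13, adjusted p = 0.0133), a call lost in a fit of only the samples compared (adjusted p = 0.0623). After 3 h of LPS alone its log2FC was -0.19 (adjusted p = 0.234), and with library size alone it was -0.53 (adjusted p = 0.00388).

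Cd300lf (chr11:115007040-115024818, minus strand) encodes an immunoglobulin-type receptor for phosphatidylserine and ceramide whose cytoplasmic tail carries inhibitory motifs. Unstimulated samples had 199, 141 and 110 normalised read counts, LPS-primed samples 683, 417 and 246, LPS-stimulated samples 103, 21.4 and 24.6 and LPS-tolerant samples 1091, 525 and 518. Every LPS-primed and LPS-tolerant value was above every unstimulated value, and every unstimulated value was above every LPS-stimulated one. Replicate 1 was the highest in 6 of 6 groups.

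Cd300lf was the only one of the 8 tested genes that rose with priming (2.99-fold, log2FC 1.58, SE 0.55, adjusted p = 0.0440), and it fell after 3 h of LPS alone (log2FC -1.65, SE 0.59, adjusted p = 0.0282). In LPS-tolerant BMDMs it was 14.9-fold higher than in LPS-stimulated BMDMs (log2FC 3.90, SE 0.62, adjusted p = 0.000113). The priming call was lost with library size alone (log2FC 1.34, adjusted p = 0.0681) and without unstimulated replicate 1, 2 or 3 or LPS-primed replicate 1 or 2 (log2FC 1.15 to 1.85), and the call after 3 h was lost without unstimulated replicate 1 or 2 or LPS-stimulated replicate 2 or 3 (log2FC -1.67 to -1.26). With the replicate block both calls had an adjusted p of 5.77e-05 and 1.82e-05. Cd300lf was then also higher in LPS-tolerant than in LPS-primed BMDMs (log2FC 0.68, SE 0.22, adjusted p = 0.0408), which the unblocked fit did not call (log2FC 0.66, SE 0.53, adjusted p = 0.526). Without LPS-stimulated replicate 1 the log2FC after 3 h was -2.70 (adjusted p = 0.00186), and that of LPS-tolerant against LPS-stimulated BMDMs was 4.95 (adjusted p = 3.19e-05).

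Timd4 (chr11:46701620-46735177, plus strand), a phosphatidylserine receptor that marks many resident tissue macrophages, was nearly absent from these cultured cells. Its raw counts were 5, 7 and 4 in LPS-stimulated samples, 0 in each unstimulated, LPS-tolerant and LPS-tolerant carboplatin sample, and 0 or 1 in all others. With a floor of 3 read pairs per library in the groups at 0, its mean in LPS-stimulated BMDMs was 1.83-fold the floor of unstimulated and 1.56-fold that of LPS-tolerant BMDMs. These folds leave out the counting error of the LPS-stimulated samples and are no lower limits. Without the filter on low counts, both differences passed edgeR's test (adjusted p = 0.0124 and 0.0237). Those tests rest on 7 read pairs or fewer per sample, so the size of the difference is not known.

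Lrp1 (chr10:127374012-127457017, minus strand) encodes a large endocytic receptor that takes part in the uptake of cells opsonized with calreticulin and C1q. It had the smallest range of the 8 tested genes, with group means of 9015 to 15607 normalised read counts. Unstimulated samples had 15098, 17886 and 13836, LPS-primed samples 12199, 13342 and 12646, LPS-stimulated samples 9710, 9145 and 8189 and LPS-tolerant samples 13366, 10901 and 13764. The LPS-stimulated samples were the lowest of these, with no overlap.

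Lrp1 fell 1.73-fold after 3 h of LPS (log2FC -0.79, SE 0.15, adjusted p = 0.000247), and its level in LPS-tolerant BMDMs was 1.41-fold higher than in LPS-stimulated BMDMs (log2FC 0.49, SE 0.15, adjusted p = 0.0140). The latter call was lost in a fit of only the samples compared (adjusted p = 0.0505) and without LPS-tolerant replicate 3 or LPS-stimulated replicate 3 (log2FC 0.43 in each). Priming gave a log2FC of -0.29 (95% interval -0.60 to 0.01, adjusted p = 0.156), and with library size alone a called -0.53 (adjusted p = 0.0104).

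Trem2 (chr17:48653429-48661175, plus strand) encodes a lipid-sensing receptor that signals through the adaptor Tyrobp. Its normalised read counts were 9354, 9945 and 6388 in unstimulated, 2390, 2221 and 1426 in LPS-primed, 6623, 5320 and 4631 in LPS-stimulated and 2562, 2034 and 1825 in LPS-tolerant samples. The 24 h groups were lower than both other groups without overlap, and the unstimulated and LPS-stimulated samples overlapped. Trem2 fell 4.26-fold with priming (log2FC -2.09, SE 0.23, adjusted p = 3.56e-06) and was 2.58-fold lower in LPS-tolerant BMDMs than after LPS stimulation alone (log2FC -1.37, SE 0.23, adjusted p = 0.000173). After 3 h of LPS alone it fell 1.55-fold (log2FC -0.63, SE 0.22, adjusted p = 0.0258). That call was lost in a fit of only the samples compared (adjusted p = 0.0520) and without unstimulated replicate 1 or 2 or LPS-stimulated replicate 2 or 3 (log2FC -0.60 to -0.49). It held with the replicate block (log2FC -0.63, SE 0.12, adjusted p = 0.000206).

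Counted over the comparisons, LPS priming for 24 h lowered 5 of the 8 tested genes (Axl, Gas6, Pros1, Mfge8 and Trem2) and raised 1, where 25.2% of all tested genes were called. Their median log2FC was -0.96, against -0.02 over all tested genes. At the limits of the study (absolute log2FC over 2 and adjusted p under 0.05), 3 were called (Axl, Gas6 and Trem2), with 7.47% of all genes. The stromal marker sum was 4.32 to 8.77 CPM in LPS-primed samples against 0.0881 to 0.684 CPM in unstimulated samples, and its part in these differences was not tested.

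A single 3 h dose lowered 5 of 8 (Mertk, Gas6, Cd300lf, Lrp1 and Trem2) and raised none, where 51.2% of all genes were called, and the median log2FC was -0.68 against -0.09 over all genes. Beside these differences, the osteoclast marker sum was higher in every LPS-stimulated than in every unstimulated sample, and its part was not tested. The comparisons of priming and of the single dose share the unstimulated samples.

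LPS-tolerant BMDMs differed from LPS-stimulated BMDMs in 7 of 8 genes, of which Axl, Gas6, Pros1, Mfge8 and Trem2 were lower and Cd300lf and Lrp1 higher, where 34.5% of all genes were called. The median log2FC was -0.74, against 0.00 over all genes. At the limits of the study 3 were called (Axl, Gas6 and Cd300lf), with 8.04% of all genes. Against LPS-primed BMDMs only 2 of 8 differed, Axl and Mertk, both lower, where 6.31% of all genes were called and the median log2FC was -0.10 against -0.01 over all genes. The comparisons with LPS-stimulated and with LPS-primed BMDMs share the LPS-tolerant samples.

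**Figure D3:**
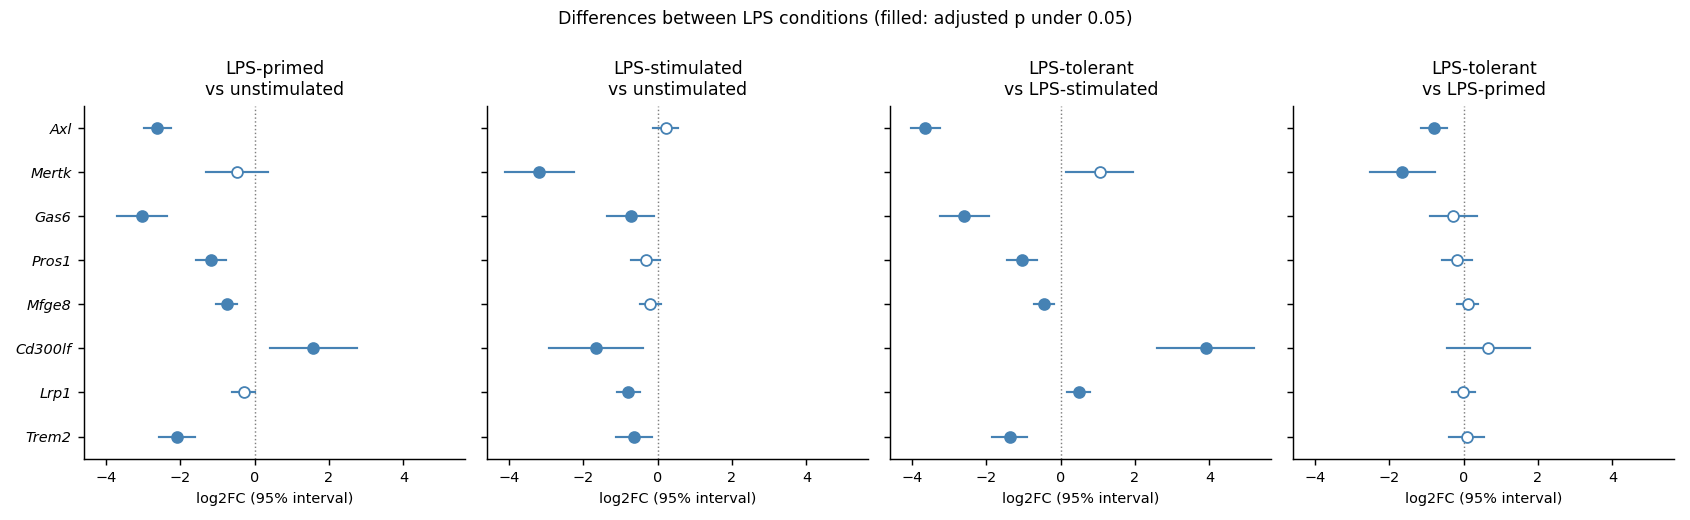
Log2FC of the 8 tested genes (rows) in the 4 comparisons of LPS conditions, with 95% intervals and filled points for an adjusted p under 0.05. Mertk and Axl change places between the comparisons of LPS-primed and LPS-stimulated BMDMs with unstimulated BMDMs (log2FC -0.48 and -2.62 against -3.18 and 0.22), and Cd300lf has the highest value, 3.90, in LPS-tolerant against LPS-stimulated BMDMs.

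Whether the step with the last LPS dose differed between primed and naive cells was tested as a difference of differences, LPS-tolerant minus LPS-primed against LPS-stimulated minus unstimulated. In primed cells this step includes the change of medium and the later harvest. For naive cells the methods of the study state neither. The difference of differences cannot separate medium and harvest from the dose. This difference was called for 3 of 8 genes, where 23.8% of all genes were called, and the median of the 8 values was 0.58 against 0.06 over all genes. For Axl the difference was -1.02 (SE 0.23, adjusted p = 0.00407): Axl fell over this step in primed cells and had a positive, uncalled log2FC in naive cells. For Lrp1 it was 0.79 (SE 0.21, adjusted p = 0.00975), from a log2FC of -0.01 in primed and -0.79 in naive cells. For Cd300lf it was 2.32 (SE 0.80, adjusted p = 0.0435), from 0.66 and -1.65, and that call was lost without unstimulated replicate 1 or 2, LPS-primed replicate 2 or 3, LPS-tolerant replicate 1 or LPS-stimulated replicate 2 or 3 (1.87 to 2.35). Without LPS-stimulated replicate 1 it was 3.36 (adjusted p = 0.00369).

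All 3 of these differences had the same sign in 3 of 3 replicate sets. With the replicate block, Mertk (1.46, SE 0.27, adjusted p = 0.000439) and Trem2 (0.73, SE 0.17, adjusted p = 0.00248) were also called, while without it they stood at 1.53 (SE 0.58, adjusted p = 0.0682) and 0.72 (SE 0.32, adjusted p = 0.115). Mertk thus fell over the step with the last dose in both states, with a log2FC of -1.65 in primed and -3.18 in naive cells. The Mertk difference was also called without unstimulated replicate 1, LPS-primed replicate 2 or LPS-tolerant replicate 1 (1.80 to 1.88), by DESeq2 (adjusted p = 0.0390) and with library size alone (1.78, adjusted p = 0.0371), and the Trem2 difference with library size alone (0.95, adjusted p = 0.0262).

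Carboplatin was then compared with its absence in each LPS state. In LPS-primed BMDMs, Axl was at 174, 262 and 278 normalised read counts without and at 146, 165 and 173 with the drug, Mertk at 260, 627 and 428 without and 157, 400 and 281 with it, and Mfge8 at 652, 783 and 780 without and 509, 625 and 610 with it. Axl and Mfge8 did not overlap between the groups, and Mertk did. Lrp1, at 12199, 13342 and 12646 without and 10133, 8899 and 11862 with the drug, did not overlap either.

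None of the 8 tested genes passed edgeR's test for carboplatin in LPS-primed BMDMs, where 0.372% of all genes were called at an adjusted p under 0.05 and 0.265% at the limits of the study. For carboplatin these limits are an absolute log2FC over 2 and an adjusted p under 0.25. Axl and Mfge8 had an unadjusted p under 0.05, as had 776 (6.86%) of all genes, and DESeq2, limma-voom and the replicate block also called 0 of the 8. Axl had a log2FC of -0.56 (95% interval -0.92 to -0.20, adjusted p = 0.285, and 0.0668 with the block), and Mertk of -0.64 (95% interval -1.49 to 0.20, adjusted p = 0.862, and 0.0833 with the block), each lower in 3 of 3 pairs. Mfge8 had a log2FC of -0.34 (95% interval -0.62 to -0.07, adjusted p = 0.517). The 8 values lay between -0.64 and -0.09, all below 0, with a median of -0.38 against 0.01 over all genes.

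In LPS-tolerant BMDMs carboplatin left the same genes with log2FC values of -0.34 to 0.01 and a median of -0.17, against 0.01 over all genes. Axl was at 114, 151 and 144 without and 106, 102 and 121 with the drug, which overlapped (log2FC -0.31, 95% interval -0.68 to 0.06, adjusted p = 0.857). Pros1 was at 315, 314 and 401 without and 239, 297 and 278 with it, with no overlap (log2FC -0.34, 95% interval -0.75 to 0.07, adjusted p = 0.858). Cd300lf was at 1091, 525 and 518 without and 1019, 369 and 485 with it. None passed the test by edgeR, DESeq2 or limma-voom and none had an unadjusted p under 0.05, against 761 (6.73%) of all genes, where 0.425% of all genes were called at an adjusted p under 0.05 and 0.389% at the limits of the study. The carboplatin effect did not differ detectably between the LPS states for any of the 8 genes by edgeR, DESeq2 or limma-voom. In that test 0% of all genes were called and 131 genes, none of the 8 among them, had an unadjusted p under 0.05.

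Other genes of apoptotic-cell uptake were taken from a list of 87 genes, of which 80 were tested. Under carboplatin, 3 of the 80 (3.75%) were lower and none higher in each LPS state, and they were the same genes: Dock1, Dock2 and Elmo1. Of all tested genes, 0.372% were called in LPS-primed (0 higher, 42 lower) and 0.425% in LPS-tolerant BMDMs (2 higher, 46 lower). With the replicate block 1 more gene of the list was called in each state, named here after its values were seen. It was Trem1 in LPS-primed (log2FC 1.18, SE 0.27, adjusted p = 0.0288, against 0.821 without the block) and Trio in LPS-tolerant BMDMs (log2FC -0.75, SE 0.15, adjusted p = 0.0129, against 0.296 without the block). Elmo and Dock proteins form the exchange factor that activates Rac downstream of uptake receptors, and Dock2 is its main form in leukocytes. In LPS-primed samples Dock1 went from 345, 461 and 443 normalised read counts to 81.0, 120 and 124, Dock2 from 2843, 3751 and 2889 to 1222, 1421 and 1202, and Elmo1 from 340, 588 and 418 to 117, 195 and 187. Each gene was lower in 3 of 3 pairs with no overlap.

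The log2FC was -1.93 for Dock1 (SE 0.22, adjusted p = 0.000188), -1.30 for Dock2 (SE 0.15, adjusted p = 0.000197) and -1.42 for Elmo1 (SE 0.20, adjusted p = 0.00136). In LPS-tolerant samples it was -1.46 for Dock1 (SE 0.22, adjusted p = 0.00319), -1.36 for Dock2 (SE 0.15, adjusted p = 0.000286) and -1.06 for Elmo1 (SE 0.20, adjusted p = 0.0237), again with 3 of 3 pairs lower and no overlap. The Elmo1 call in LPS-tolerant BMDMs was lost without LPS-tolerant replicate 2 or 3 or any 1 of the 3 carboplatin replicates (log2FC -1.08 to -0.98). Fitted on only the samples compared, Elmo1 in LPS-primed (adjusted p = 0.0947) and Dock1 and Elmo1 in LPS-tolerant BMDMs (adjusted p = 0.0912 and 0.0779) were not called. These genes span 503.0 kb (Dock1), 498.0 kb (Dock2) and 518.1 kb (Elmo1) of GRCm39, and the other 12 engulfment genes on the list span 14.1 to 295.3 kb. The part of gene length in the result was not tested.

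**Figure D4:**
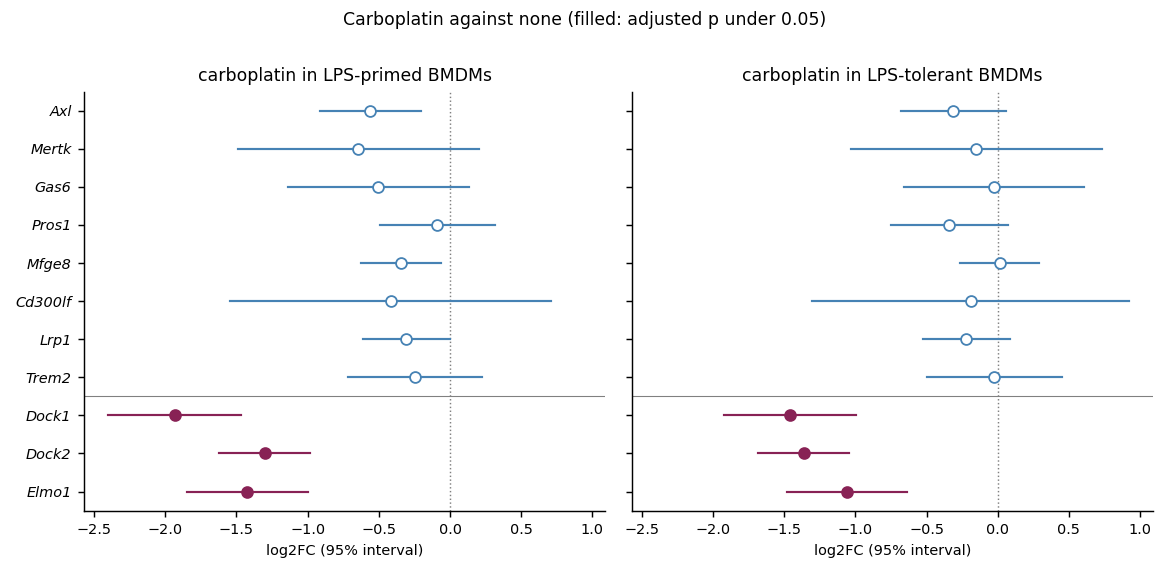
Log2FC with 95% intervals for carboplatin against none in LPS-primed (left) and LPS-tolerant (right) BMDMs, for the 8 tested genes and, below the line, Dock1, Dock2 and Elmo1, with filled points for an adjusted p under 0.05. The 8 genes lie between -0.64 and 0.01 with open points, and Dock1, Dock2 and Elmo1 between -1.93 and -1.06 with filled points.

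In the LPS comparisons, the 80 tested genes of the list went in both directions. Priming raised 22 and lowered 15 of them (median log2FC 0.04), and the single 3 h dose raised 23 and lowered 24. LPS-tolerant BMDMs had 20 higher and 15 lower than LPS-stimulated BMDMs, and 3 higher and 1 lower than LPS-primed BMDMs. The share called was 46.2%, 58.8%, 43.8% and 5%, beside 25.2%, 51.2%, 34.5% and 6.31% of all genes.

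Among the 11 tested of the other recognition receptors, 5 fell and 3 rose with priming, beside 25.2% of all genes called. After 3 h, 5 fell and 3 rose, beside 51.2% of all genes called. Itgb3, the partner of the alpha-v integrin that Mfge8 engages, went from a mean of 73.0 normalised read counts in unstimulated BMDMs to 1.33 in LPS-primed BMDMs and was at 43.3 in LPS-stimulated and 4.31 in LPS-tolerant BMDMs (log2FC -3.26 between the last groups, SE 0.62, adjusted p = 0.000784). Havcr2, a phosphatidylserine-binding receptor known also as a checkpoint molecule, was higher in LPS-tolerant than in LPS-primed BMDMs (log2FC 1.64, SE 0.43, adjusted p = 0.0299). The Havcr2 call was lost in a fit of only the samples compared (adjusted p = 0.0646) and without LPS-primed replicate 2 or 3 or LPS-tolerant replicate 1 or 3 (log2FC 1.29 to 1.71). The value was 2.23 without LPS-primed replicate 1, and the call held with the replicate block (log2FC 1.69, SE 0.28, adjusted p = 0.000417).

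Of the 7 bridging and opsonizing proteins, 2 rose and 1 fell with priming, where 25.2% of all genes were called. Thbs1, which encodes the bridge thrombospondin, rose from a mean of 173 to 23385 normalised read counts (log2FC 7.08, SE 0.86, adjusted p = 1.02e-05) and was higher in LPS-tolerant BMDMs than after LPS stimulation alone (log2FC 3.46, SE 0.72, adjusted p = 0.00127), unlike Gas6, Pros1 and Mfge8. Its spread was wide, with an SD of 18780 in the LPS-primed group and of 47206 around a mean of 47095 in the LPS-tolerant group, and these values were 6.19 without LPS-primed replicate 1 and 2.23 without LPS-tolerant replicate 1 (adjusted p = 2.29e-05 and 0.0104). Of the 4 receptors for find-me signals, 1 rose and 1 fell with priming, the latter being the fractalkine receptor Cx3cr1 (log2FC -3.54, SE 0.71, adjusted p = 0.00129, and -4.32 without LPS-primed replicate 3). Gpr132, a receptor for lysolipids, was lower in LPS-tolerant BMDMs than after LPS stimulation alone (log2FC -3.24, SE 0.30, adjusted p = 4.41e-07).

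After 3 h of LPS, where 51.2% of all genes were called, 8 of the 12 lipid sensing and efflux genes fell and 1 rose. They included Abcg1, a cholesterol exporter (log2FC -3.07, SE 0.19, adjusted p = 1.56e-09), Rxra, the partner of the LXR and PPAR receptors (log2FC -2.45, SE 0.42, adjusted p = 0.000116), and Mylip, a ubiquitin ligase (log2FC -2.39, SE 0.26, adjusted p = 1.30e-06). With priming, where 25.2% of all genes were called, 4 of the 12 fell and 3 rose. Pparg fell with priming from a mean of 405 to 7.46 normalised read counts (log2FC -5.76, SE 0.48, adjusted p = 1.44e-07). In LPS-tolerant BMDMs Rxra was higher than in LPS-stimulated BMDMs (log2FC 2.71, SE 0.42, adjusted p = 9.07e-05). Against LPS-primed BMDMs, Abcg1 was lower (log2FC -1.71, SE 0.18, adjusted p = 5.01e-05).

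The TREM2 signalling genes and the TAM processing and target genes included genes that rose from low levels. With priming, where 25.2% of all genes were called, 3 of 7 genes listed under TREM2 signalling rose and 1 fell. Those that rose were Syk (log2FC 0.83) and the receptor genes Trem1 and Trem3, which the list also holds. Plcg2 fell (log2FC -0.58), and Tyrobp, Hcst and Apoe were not called. Trem1, the receptor of the same family that amplifies inflammation, was at 0 or 1 raw count in unstimulated samples (mean of 0.319 normalised read counts) and at means of 97.0 in LPS-primed, 39.2 in LPS-stimulated and 246 in LPS-tolerant BMDMs, while Trem2 was lower in each of these groups than in unstimulated BMDMs. The cytokine signalling inhibitors Socs1 and Socs3, which TAM receptors are known to induce, were high after 3 h, with Socs3 at a mean of 11936 normalised read counts against 34.9 (log2FC 8.42, SE 0.54, adjusted p = 2.44e-09) and Socs1 at 559 against 12.0 (log2FC 5.52, SE 0.85, adjusted p = 4.67e-05). Socs3 was lower in LPS-tolerant BMDMs than after LPS stimulation alone (log2FC -3.05, SE 0.41, adjusted p = 2.33e-05, and -3.82 without LPS-tolerant replicate 1).

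The remaining groups gave these counts, beside 25.2% of all genes called with priming and 51.2% after 3 h. Of 14 tested engulfment genes, 4 rose and 1 fell with priming, and 4 rose and 1 fell after 3 h. Of 10 phagosome genes, 2 fell and none rose with priming, and 5 fell and 2 rose after 3 h. Among 6 genes of do-not-eat-me signalling, 2 rose with priming and none fell, and Lilrb4a, an inhibitory receptor, was higher in LPS-tolerant than in LPS-primed BMDMs (log2FC 0.68, SE 0.19, adjusted p = 0.0390), a call lost without any 1 of the 6 samples (log2FC 0.63 to 0.73). The Lilrb4a call was also lost with library size alone (log2FC 0.58, adjusted p = 0.0657). It held with the replicate block (log2FC 0.68, SE 0.15, adjusted p = 0.00442). Of 3 Lrp1 partners, 1 rose with priming.

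A few partners of the 10 genes, picked for their roles after their values were seen, were also read. Tyrobp, the adaptor of Trem2, had means of 5728 normalised read counts in unstimulated and 4466 in LPS-primed BMDMs (log2FC -0.36, SE 0.13, adjusted p = 0.0557). Adam17, a protease that sheds Mertk from the cell surface, rose with priming (log2FC 1.18, SE 0.27, adjusted p = 0.00306) and after 3 h (log2FC 0.82, SE 0.26, adjusted p = 0.0160). Itgb5, the other integrin partner in Mfge8 binding, fell with priming (log2FC -1.16, SE 0.17, adjusted p = 5.44e-05) and after 3 h (log2FC -1.07, SE 0.17, adjusted p = 4.70e-05). The alpha integrin chain Itgav rose after 3 h from a mean of 881 to 8719 normalised read counts (log2FC 3.31, SE 0.42, adjusted p = 5.74e-06) and stood at a log2FC of -0.17 with priming (SE 0.39, adjusted p = 0.796). The chaperone of Lrp1, Lrpap1, rose with priming (log2FC 0.83, SE 0.22, adjusted p = 0.0112).

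**Figure D5:**
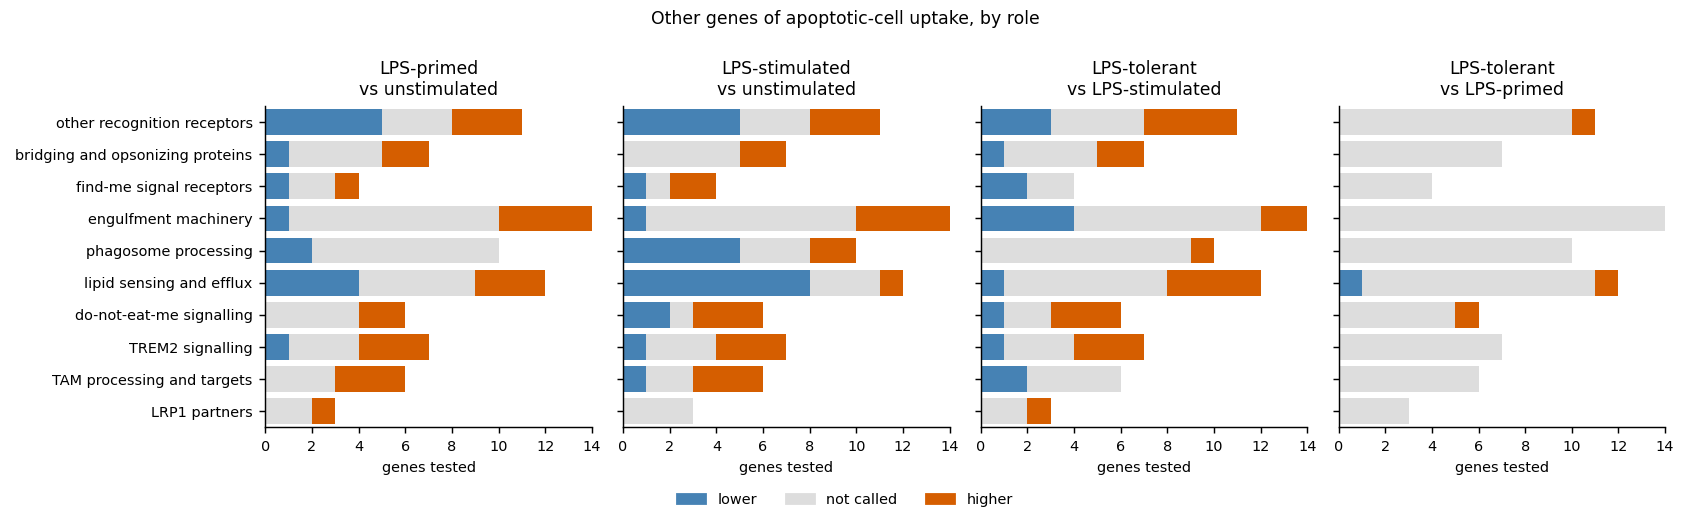
Number of tested genes of each role (rows) that were lower (blue), not called (grey) or higher (orange) in the 4 comparisons of LPS conditions. Lipid sensing and efflux genes were lower in 8 of 12 cases after 3 h of LPS, where 51.2% of all genes were called. Few genes of any role differed between LPS-tolerant and LPS-primed BMDMs (3 higher and 1 lower of 80), where 6.31% of all genes were called.

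Among all tested genes, those whose pattern over the 18 samples was most like that of Axl, by the root mean square difference of centred log2 CPM, were Mki67 (0.444), Ephx1 (0.456) and Fbln5 (0.486). For Mertk they were Tlr8 (0.431), Themis2 (0.460) and Tmem150b (0.495), and for Gas6 they were Igfbp4 (0.387), Mcm10 (0.420) and Tacc3 (0.441). Trem2 had the closest neighbours, Ckb (0.187), Syngr1 (0.205) and Rgs10 (0.259), and Cd300lf the most distant, Tnnc1 (0.619), B430306N03Rik (0.623) and Pced1b (0.652). Pros1, Mfge8 and Lrp1 spanned less than 2 on the log2 scale between their highest and lowest group means (1.67, 1.10 and 0.787) and were not matched. Fbln5 had a mean of 0 normalised read counts in LPS-primed and LPS-tolerant BMDMs, so its match to Axl rests partly on values at the floor.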

How the data were processed

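RNA-Seq was read from 18 samples of BMDMs in 6 groups of 3. Libraries were stranded, and the authors mapped them to GRCm39 (HISAT2) before counting read pairs per gene (HTSeq-count). Versions and the annotation are not given in the sources used here. The deposited values are these raw counts, without normalization. Rows that name no gene, 41.5 to 46.9% of each library, were left out of library sizes and tests. At 6869667 to 14708099 read pairs per sample, a gene with few counts has a wide sampling error. Floors drawn from counts cover counting error only. The intervals given with the tests come from the quasi-likelihood fit, which also takes in the variation between replicates. No 2 samples of a group agreed within sampling noise (mean chi-square per gene of 16.8 to 65.3).

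The tests were two-sided quasi-likelihood F tests of edgeR 4.0.16 (R 4.3.3), with TMM factors, the default filter (minimum count 10, minimum total 15), a mean per group over all 18 samples, and Benjamini-Hochberg adjustment over 11305 genes. The SE was obtained from log2FC and F. The study states no pairing. After removal of group means, same-numbered samples correlated at 0.0631 to 0.574 between groups, and in every comparison each pair was above 0.1, so that the replicate numbers of the labels were taken to pair the samples. The main tests nevertheless leave this pairing out, so a gene that they did not call can be called with the replicate block. For the 10 genes the replicate block is given where it changes a call. The scripts were tested on simulated counts.

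The 10 genes and the list of 87 other genes were chosen with earlier results of these data known. Of that list, up to 3 called genes a direction with the largest absolute log2FC and the same sign in 3 of 3 pairs were named in each comparison, besides all 10 genes, the treatment checks and the 3 nearest genes in pattern. A gene that this rule picks is not reported here. Positions, canonical transcript lengths and promoters are from GENCODE vM39 on GRCm39.

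Alternatives were RLE size factors, library size alone, no filter, at least 10 counts in every sample, DESeq2 1.42.0, limma-voom (limma 3.58.1), only the samples compared, the replicate block, the limits of the study and leaving out each sample. Their use on the other genes of the list was chosen after seeing the data.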

Additional observations from a re-analysis of the deposited data

Results flagged for a closer look

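The change over the step with the last LPS dose differed between primed and naive BMDMs for 3 of the 8 tested genes. This was edgeR's test of the difference of differences with Benjamini-Hochberg adjustment. In primed cells the step includes the change of medium and the later harvest, and for naive cells the methods of the study state neither. Axl had a difference of -1.02 on the log2 scale (SE 0.23, adjusted p = 0.00407). Cd300lf had a difference of 2.32 (SE 0.80, adjusted p = 0.0435), and Lrp1 had a difference of 0.79 (SE 0.21, adjusted p = 0.00975). Each had the same sign in 3 of 3 replicate sets, and 23.8% of all tested genes were called in this test.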

How the results depend on the processing

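No called log2FC of the 8 tested genes changed sign under an alternative. Among the counts of genes called, the last-dose difference between primed and naive cells gave 5 in place of 3 with library size alone and with the replicate block. LPS-stimulated against unstimulated BMDMs gave 3 in place of 5 with only the samples compared, 1 at the limits of the study and from 2 to 5 with 1 sample left out. It gave 2 without unstimulated replicate 2 or LPS-stimulated replicate 2 or 3, and 3 without unstimulated replicate 1. LPS-tolerant against LPS-primed BMDMs gave 1 in place of 2 with only the samples compared, 0 at the limits of the study and from 0 to 2 with 1 sample left out, with 0 without LPS-primed replicate 3 and 1 without LPS-primed replicate 2 or LPS-tolerant replicate 1 or 3. At the limits of the study, priming gave 3 in place of 6 and LPS-tolerant against LPS-stimulated BMDMs 3 in place of 7. Fewer samples entered some of these fits and the limits ask for a larger log2FC, and the cause of the other changes was not tested. The replicate block gave 7 in place of 6 for priming, 6 in place of 5 for the single dose, 8 in place of 7 and 3 in place of 2 for LPS-tolerant against LPS-stimulated and LPS-primed BMDMs, and 0 in the carboplatin comparisons. For the 8 tested genes it changed no call other than those given above or in the report. Of the other genes on the list it called 51 in place of 37 for priming, 51 in place of 47 for the single dose, 52 in place of 35 for LPS-tolerant against LPS-stimulated BMDMs, 43 in place of 33 for the last-dose difference and 4 in place of 3 for carboplatin in each LPS state, and these genes are not all named. Library size alone moved the median log2FC of all genes from -0.02 to -0.26 for priming, from -0.09 to -0.43 for the single dose, from -0.01 to -0.11 for LPS-tolerant against LPS-primed BMDMs and from 0.06 to 0.30 for the last-dose difference. The share of higher genes among those called then went from 48.1 to 26.4%, 47.5 to 28.5%, 57.1 to 38.3% and 44.2 to 63.3%. Of the other genes on the list, LPS-tolerant against LPS-primed BMDMs gave 2 without LPS-primed replicate 3 or LPS-tolerant replicate 3, 9 by DESeq2 and 14 with the block, in place of 4, and carboplatin in LPS-tolerant BMDMs gave 1 with only the samples compared, in place of 3. Tyro3 and Timd4, at 7 counts or fewer in every sample, were limited by depth.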

Other observations

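Several genes ranked alike by replicate number across the groups. Mertk was highest in replicate 2 and Cd300lf in replicate 1 in 6 of 6 groups. Gas6 was lowest in replicate 3 in 5 of 6 groups, and Pros1 and Mertk in replicate 1 in 5 of 6. The cause was not tested.

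Mki67, the proliferation marker nearest to Axl in pattern, had a mean of 5576 normalised read counts in unstimulated BMDMs and 958 in LPS-primed BMDMs. Its mean was 6440 in LPS-stimulated and 842 in LPS-tolerant BMDMs. With carboplatin it was 505 in LPS-primed and 510 in LPS-tolerant BMDMs.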
